A study of Mus musculus with 15 samples.

Results

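The 10 genes described here are Idh1, Idh2, Me1, Me2, Me3, G6pdx, Pgls, Pgd, Tkt and Taldo1, which encode NADPH-supplying enzymes or enzymes of the pentose phosphate pathway that feeds them. They were listed by name, out of 55421 genes counted in each library. Idh1 was chosen by its levels in the 3 genotypes, which followed the number of mutant Tmem135 alleles in these same libraries, and the question put to the other 9 was whether they follow it too. All 10 passed the filter on low counts, as did 18979 genes in all. Since the relation of Idh1 to allele number chose it, its values are given as a description, and tests are given for the other 9 members only.

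RNA was sequenced from posterior eyecups (retinal pigmented epithelium, choroid and sclera, without the neural retina) of 2.5-month-old mice on the C57BL/6J background, with 1 library per mouse. The groups were 4 WT mice, 6 mice heterozygous for the FUN025 mutation of Tmem135 (FUN025/+) and 5 homozygous mice (FUN025/FUN025). Tmem135 encodes a transmembrane protein linked to mitochondrial fission. Both sexes were used in the study, but the labels give no mouse's sex. In such whole tissue, fewer cells of a type and less RNA per cell cannot be told apart.

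NADPH is the reduced cofactor that fatty acid and cholesterol synthesis consume, and that the glutathione and thioredoxin reductases use to keep antioxidants in their reduced form. In the cytosol it comes from the pentose phosphate pathway (G6pdx, Pgls and Pgd, with Tkt and Taldo1 returning the sugars to glycolysis), from isocitrate dehydrogenase 1 (Idh1) and from malic enzyme 1 (Me1). Idh2 makes it from isocitrate, and Me3 from malate, inside mitochondria, where Me2 uses mainly NAD. The pigmented epithelium is known for its high load of light and oxygen, against which these reductases protect.

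Total counts were 10903183 to 20029919 per library, and every WT library (at least 18094977) was deeper than every mutant library (at most 15038383). The labels name no batch. Levels are in CPM, counts scaled to a common library size after TMM normalization, and 3 counts, the limit a count of 0 allows for counting error alone, correspond to 0.15 to 0.28 CPM. The 8 pigment epithelium markers were present in every library, at 16243 to 21813 CPM summed. The 10 rod markers summed to 231 to 2246 CPM in WT, 88.0 to 665 CPM in FUN025/+ and 93.9 to 418 CPM in FUN025/FUN025, and 10 skeletal muscle markers to 5161 to 10169, 2749 to 7453 and 4371 to 5497 CPM. Markers of the corneal surface epithelium, a list of 6 genes added after the values of Tkt had been seen, summed to 376 to 1753 CPM in WT, 456 to 4849 CPM in FUN025/+ and 832 to 2157 CPM in FUN025/FUN025. FUN025/+ replicate 6 stood far apart in Krt12, the keratin of corneal epithelium, at 969 CPM against 2.25 to 81.9 CPM in the other 14 libraries. It also did in Aldh3a1, at 766 CPM against 64.5 to 230 CPM. In Krt15 (1258 against 1236 CPM) and Krt14 (141 against 127 CPM), FUN025/+ replicate 1 was higher than replicate 6. Between FUN025/FUN025 and WT, edgeR called 5 of 8 endothelial, 2 of 10 muscle and 1 of 6 Schwann cell markers lower and 1 of 8 macrophage markers higher, beside 7.02% of all genes lower and 7.03% higher. It called 0 of the pigment epithelium, rod, corneal, fibroblast and sclera, melanocyte, adipocyte, lipid gland and red blood cell markers, though all 10 rod markers had a negative log2 difference (median -1.85) and 8 of 10 an unadjusted p under 0.05 (28.6% of all genes).

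The promoters of the member that follows allele number (Idh1), of the only other member called between FUN025/FUN025 and WT (Pgd) and of the entry enzyme of the pentose phosphate pathway (G6pdx) are shown as the 250 bases before a RefSeq start on GRCm38.p6, all on the minus strand. Of the 2 starts held for Idh1 and for Pgd, the one farthest upstream is shown: chr1:65186480-65186729 for Idh1, chr4:149166706-149166955 for Pgd and chrX:74428881-74429130 for G6pdx. Capitals mark CCAAT in either orientation, at -151 from the start in Idh1 and at -46 and -9 in Pgd, and the antioxidant response motif TGACNNNGC, on the opposite strand at -57 in G6pdx.
Idh1: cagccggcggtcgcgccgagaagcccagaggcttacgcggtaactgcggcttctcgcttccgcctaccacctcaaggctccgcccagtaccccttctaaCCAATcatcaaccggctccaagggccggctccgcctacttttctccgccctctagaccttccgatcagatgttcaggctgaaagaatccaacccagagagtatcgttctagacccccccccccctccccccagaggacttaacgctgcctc
Pgd: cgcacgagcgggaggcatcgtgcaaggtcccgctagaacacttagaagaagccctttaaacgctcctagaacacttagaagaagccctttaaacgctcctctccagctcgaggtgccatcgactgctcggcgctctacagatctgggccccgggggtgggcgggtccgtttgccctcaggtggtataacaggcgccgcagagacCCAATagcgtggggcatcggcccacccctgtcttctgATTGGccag
G6pdx: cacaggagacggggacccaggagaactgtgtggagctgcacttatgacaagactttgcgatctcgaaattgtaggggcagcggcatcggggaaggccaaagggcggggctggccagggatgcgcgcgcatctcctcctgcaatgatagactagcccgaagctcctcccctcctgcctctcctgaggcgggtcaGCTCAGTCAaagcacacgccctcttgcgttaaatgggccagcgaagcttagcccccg
RefSeq windows of 300 bases, from 250 before to 50 after the start, were at hand for 9 of the 10 members (12 windows; Me2 had none) and were searched on both strands. The sterol response motif TCACNCCAC, found in 1.24% of the 32851 windows of all genes, the FOXO motif GTAAACA (3.65%) and the E-box CACGTG (7.15%) had no match in the 12 windows. TGACNNNGC (12.4% of all windows) matched in Me1, G6pdx and a second Pgd window, CCAAT (37.4%) in Idh1, Idh2, Me1, Pgd and Taldo1, and the GC box GGGCGG (35.7%) in 8 of the 9 genes, Me3 being without it. In the 3 sequences shown, no match overlapped another. A match is a description of the letters, and no match says only that these letters are absent from the window.

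Per length of transcript, in WT eyecups, the most abundant member was Taldo1, which shuttles sugar phosphates between the pentose phosphate pathway and glycolysis, at 365 ± 23.7 TPM (the length-scaled share of transcripts, computed from the counts and the annotated exon length; SD, n = 4). Me1 followed at 163 ± 13.6 TPM, then Idh2 at 123 ± 4.75 TPM, Tkt at 108 ± 10.3 TPM, Idh1 at 87.8 ± 3.11 TPM, G6pdx at 58.5 ± 5.22 TPM, Pgd at 46.4 ± 1.62 TPM and Pgls at 28.3 ± 1.90 TPM. Me3, at 8.14 ± 0.34 TPM, and Me2, at 7.57 ± 1.36 TPM, were lowest, and they were the only neighbours in this order whose ranges over the 4 WT mice overlapped. The exons annotated for Me3 add up to 14624 bases, and an annotated length beyond what these cells transcribe would lower its TPM. With both alleles mutant, Idh1 (120 ± 4.01 TPM) stood above Idh2 (109 ± 7.41 TPM), whereas in WT it stood below it. The ratio of Idh1 to Idh2 per length was 0.70 to 0.72 in the WT mice (median 0.71), 0.85 to 0.99 in FUN025/+ (median 0.90) and 1.01 to 1.27 in FUN025/FUN025 (median 1.10). Which of the pair is the higher in FUN025/+ and in FUN025/FUN025, where the ratio comes close to 1, depends on the annotated exon lengths of 2771 and 2588 bases.

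Idh1 (chromosome 1, bases 65158616 to 65186500 of GRCm38, minus strand), the cytosolic and peroxisomal isocitrate dehydrogenase, was at 74.5, 75.6, 77.1 and 78.6 CPM in the WT mice. In FUN025/+ it was at 86.7 CPM at the lowest, 91.6 at the median and 93.6 at the highest. In FUN025/FUN025 it was at 104, 106, 107, 108 and 114 CPM. The 3 genotypes did not overlap, and every mouse stood above every mouse with fewer mutant alleles. Ranges were apart in this direction for 5.75% of all genes between FUN025/+ and WT, 7.27% between FUN025/FUN025 and WT and 0.627% between the mutant genotypes, figures from which nothing is read here since this pattern chose Idh1. The fitted log2 difference was 0.25 (SE 0.040) for FUN025/+ over WT and 0.50 (SE 0.042) for FUN025/FUN025 over WT, folds of 1.19 and 1.41, and FUN025/+ lay 0.00061 from the midpoint of the homozygous genotypes on the log2 scale. The counts behind these levels were 963 to 1620 per library.

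**Figure D1:**
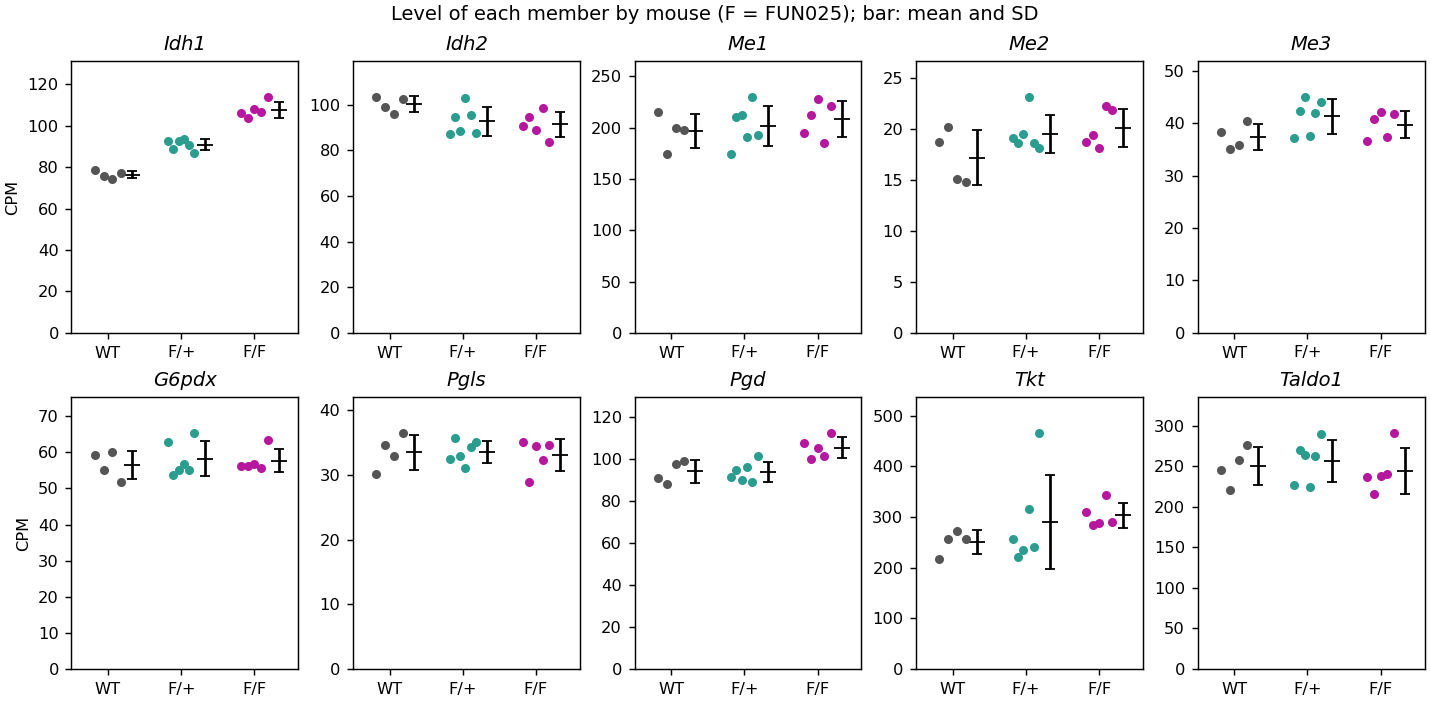
Level of each of the 10 enzymes in CPM (vertical axis, from 0) in each mouse, by genotype (grey WT, n = 4; green FUN025/+, n = 6; magenta FUN025/FUN025, n = 5), with the mean and SD beside the points. Idh1 climbs from 74.5 to 78.6 CPM in WT to 104 to 114 CPM in FUN025/FUN025 with no overlap between genotypes; of the others, Pgd and Tkt separate FUN025/FUN025 from WT, and 1 FUN025/+ mouse stands at 466 CPM in Tkt.

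Of the other 9 members, 0 passed the test for a relation to allele number. In the linear trend on 0, 1 or 2 mutant alleles (limma, adjusted p under 0.01, which 2.14% of all genes tested passed), 0 of 9 passed, and at an unadjusted p under 0.05, which 24.8% of all genes had, 3 of 9 did: Idh2, Me2 and Pgd. The smallest limma adjusted p among them was 0.0701, for Pgd. The slope of Idh1 was 0.25 log2 units per allele, the slopes of the other 9 ran from -0.066 to 0.14 with a median of 0.039, beside -0.0042 over all genes. Pearson's r of log2 CPM with allele number over the 15 libraries was 0.98 for Idh1, 0.65 for Pgd, 0.51 for Me2, 0.39 for Tkt, 0.27 for Me3 and Me1, 0.11 for G6pdx, -0.088 for Pgls, -0.12 for Taldo1 and -0.55 for Idh2.

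The same 9 members were compared by pairs of genotypes. Between FUN025/+ and WT, edgeR's quasi-likelihood test called 13.7% of all genes at an adjusted p under 0.05 and 0 of the 9 members (edgeR adjusted p 0.156 to 0.995), and at an unadjusted p under 0.05 (28.8% of all genes) only Me3. Between FUN025/FUN025 and WT it called 14.0% of all genes and 1 of the 9, Pgd, and at an unadjusted p under 0.05 (28.6%) also Idh2 and Me2. Between FUN025/FUN025 and FUN025/+ it called 0.522% of all genes and 0 of the 9, with Pgd at an unadjusted p under 0.05 (6.23%). DESeq2 and limma-voom also called 0 of the 9 between FUN025/+ and WT and between the mutant genotypes. The median log2 difference of the 9 was 0.039, 0.084 and -0.014 in the 3 comparisons, beside medians of -0.0023, -0.0071 and -0.0040 over all genes. The 2 comparisons with WT share their WT mice. Against the midpoint of the homozygous genotypes, where 1.95% of all genes were called, 0 of the 9 were called by edgeR, and 0 had an unadjusted p under 0.05 (16.3% of all genes).

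**Figure D2:**
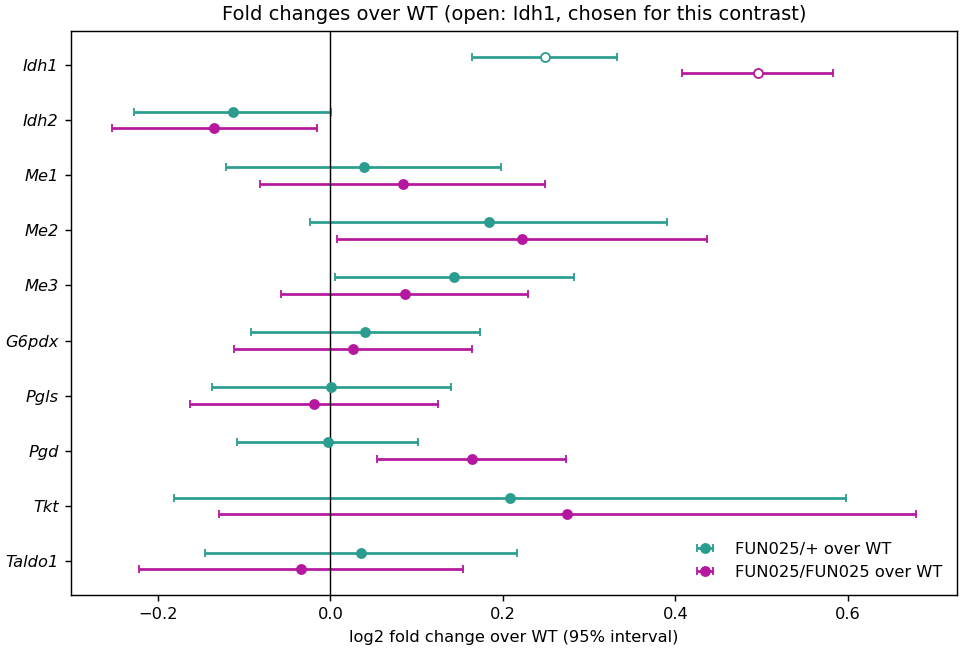
Log2 fold change over WT with its 95% interval (horizontal axis) for each of the 10 enzymes, in FUN025/+ (green) and FUN025/FUN025 (magenta); open circles mark Idh1, whose values chose it. Idh1 lies at 0.25 and 0.50, the interval of Pgd in FUN025/FUN025 runs from 0.054 to 0.27, and the widest intervals are those of Tkt.

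Idh2 (chromosome 7, bases 80094846 to 80115392), which makes mitochondrial NADPH from isocitrate, did not move with its cytosolic counterpart. It was at 96.1, 99.2, 102 and 104 CPM in WT, at 87.1 CPM at the lowest, 91.6 at the median and 103 at the highest in FUN025/+, and at 83.7, 89.2, 90.7, 94.8 and 98.5 CPM in FUN025/FUN025. The mutant mice lay mostly below WT, 5 of 6 FUN025/+ and 4 of 5 FUN025/FUN025 mice standing under every WT mouse, but the ranges overlapped. The log2 difference was -0.11 (SE 0.054, edgeR adjusted p = 0.177) for FUN025/+ and -0.13 (SE 0.057, 95% interval -0.25 to -0.016, edgeR adjusted p = 0.123) for FUN025/FUN025 over WT, neither past the threshold. With the rod and muscle markers as covariates these were 0.0047 and -0.035.

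The malic enzymes turn malate into pyruvate. Me1 (chromosome 9, bases 86581371 to 86695953), the cytosolic form that supplies lipid synthesis, ranged from 175 to 215 CPM in WT, 175 to 230.4 CPM in FUN025/+ and 186 to 228 CPM in FUN025/FUN025, with log2 differences over WT of 0.039 (SE 0.076, edgeR adjusted p = 0.777) and 0.084 (SE 0.079, edgeR adjusted p = 0.522). Of its sequence, 36.9% in stretches of 31 bases also occurs in other genes, mainly Gm7049 and Gm48795, so part of its reads could be shared. Me2 (chromosome 18, bases 73769903 to 73815449) was at 14.8, 15.1, 18.7 and 20.2 CPM in WT, at 18.1 CPM at the lowest, 18.9 at the median and 23.2 at the highest in FUN025/+, and at 18.2, 18.8, 19.4, 21.9 and 22.3 CPM in FUN025/FUN025. WT replicates 3 and 4 stood below every mutant mouse and WT replicates 1 and 2 within their range. The log2 difference for FUN025/FUN025 over WT was 0.22 (SE 0.10, 95% interval 0.0074 to 0.44, edgeR adjusted p = 0.160).

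Me3 (chromosome 7, bases 89632392 to 89854359), a mitochondrial NADP-dependent form, is the member nearest to the mutated gene, 228170 bases from Tmem135 itself. It was at 35.1, 35.9, 38.3 and 40.5 CPM in WT, at 37.2 CPM at the lowest, 42.2 at the median and 45.1 at the highest in FUN025/+, and at 36.7, 37.4, 40.9, 41.8 and 42.1 CPM in FUN025/FUN025. Heterozygotes, 4 of 6 of them above every WT mouse, were the higher mutant group, and all ranges overlapped. The log2 difference was 0.14 (SE 0.066, edgeR adjusted p = 0.156) for FUN025/+ and 0.086 (SE 0.068, edgeR adjusted p = 0.440) for FUN025/FUN025 over WT, neither past the threshold. Tmem135 was at 64.0 ± 2.99, 75.0 ± 7.30 and 88.3 ± 4.57 CPM in the 3 genotypes (log2 differences over WT of 0.23, edgeR adjusted p = 0.0248, and 0.47, edgeR adjusted p = 0.00015). As FUN025 is not a deletion of the gene, this level does not check the labels. Both other members of chromosome 7 lie farther away, Idh2 9024322 and Taldo1 51987977 bases from Tmem135.

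G6pdx (chromosome X, bases 74409483 to 74429194) encodes glucose-6-phosphate dehydrogenase, the committed and NADPH-making step of the pentose phosphate pathway. It ranged from 51.8 to 60.2 CPM in WT, 53.8 to 65.5 CPM in FUN025/+ and 55.6 to 63.4 CPM in FUN025/FUN025, with overlapping ranges and log2 differences over WT of 0.040 (SE 0.063, edgeR adjusted p = 0.710) and 0.026 (SE 0.066, 95% interval -0.11 to 0.16, edgeR adjusted p = 0.829). Of its sequence, 12.6% also occurs in G6pd2 and 11.8% in Ikbkg, which overlaps it on the other strand. Pgls (chromosome 8, bases 71592176 to 71601092), the lactonase of the next step, ranged from 30.2 to 36.5, 31.0 to 35.6 and 28.9 to 35.0 CPM, with log2 differences over WT of 0.0010 (SE 0.066, edgeR adjusted p = 0.995) and -0.020 (SE 0.068, edgeR adjusted p = 0.881), and shares 19.5% of its sequence with the overlapping Fam129c.

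Pgd (chromosome 4, bases 149149991 to 149166771), 6-phosphogluconate dehydrogenase and the second NADPH-making step of the pathway, was higher in FUN025/FUN025 than in WT. It was at 88.2, 91.2, 97.9 and 99.4 CPM in WT, at 89.1 CPM at the lowest, 93.3 at the median and 101 at the highest in FUN025/+, and at 100.2, 101, 105, 108 and 113 CPM in FUN025/FUN025. Every homozygote stood above every WT mouse, narrowly, and 5 of 6 heterozygotes lay within the WT range. Every mouse of FUN025/FUN025 was above WT in this way for 2 of the 9 members, Pgd and Tkt, beside the 7.27% of all genes given above. The log2 difference over WT was 0.16 (SE 0.052, 95% interval 0.054 to 0.27, a fold of 1.12, edgeR adjusted p = 0.0429) in FUN025/FUN025. In FUN025/+ it was -0.0034 (SE 0.050, edgeR adjusted p = 0.975), a sign that other scalings turned (0.013 with upper quartile scaling), and between the mutant genotypes it was 0.17 (SE 0.047, edgeR adjusted p = 0.211). From the midpoint of the homozygous genotypes FUN025/+ lay -0.085 away (95% interval -0.17 to 0.0012, edgeR adjusted p = 0.313), beside 0.00061 (95% interval -0.068 to 0.069) for Idh1. The intervals overlap, and the difference between the genes was not tested. The call stands close to the threshold: it was lost without any 1 of 6 mice (WT replicates 1 or 2, FUN025/+ replicate 2, FUN025/FUN025 replicates 1, 3 or 5; edgeR adjusted p 0.0518 to 0.109), with no low-count or variance filter (edgeR adjusted p = 0.0745), with replicate number as a block (0.0808), with only these genotypes in the fit (0.0564), with the rod and muscle markers as covariates (0.089, edgeR adjusted p = 0.599) and with the corneal epithelium markers as a covariate, chosen after seeing the data (0.12, edgeR adjusted p = 0.126). Of the 14 alternatives other than leaving out 1 mouse, 9 kept the call. Among these were libraries thinned to the shallowest total (0.18, edgeR adjusted p = 0.0268) and DESeq2 (0.17, DESeq2 adjusted p = 0.0193).

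Tkt (chromosome 14, bases 30548359 to 30574720), transketolase, which exchanges carbon units between pentose phosphates and glycolysis and is also an abundant protein of the mouse cornea, had the widest spread. It was at 217, 256, 257 and 272 CPM in WT, at 221 CPM at the lowest, 249 at the median and 466 at the highest in FUN025/+, and at 284, 287, 289.8, 310.1 and 344 CPM in FUN025/FUN025. Every homozygote stood above every WT mouse, and FUN025/+ replicate 6, the library with 969 CPM of Krt12, stood above all others. The log2 difference for FUN025/FUN025 over WT was 0.27 (SE 0.19, 95% interval -0.13 to 0.68, edgeR adjusted p = 0.367), in a fit with these 2 genotypes alone it was 0.28 (edgeR adjusted p = 0.0301), and without FUN025/+ replicate 6 it was 0.27 (edgeR adjusted p = 0.0642). For FUN025/+ over WT it was 0.21 (SE 0.18, edgeR adjusted p = 0.479) with replicate 6 and 0.020 without it. With the corneal epithelium markers as a covariate, a list added after the values of Tkt had been seen, these differences were 0.081 (edgeR adjusted p = 0.754) and -0.017 (edgeR adjusted p = 0.953). With the rod and muscle markers as covariates they were 0.45 (edgeR adjusted p = 0.498) and 0.42 (edgeR adjusted p = 0.623). With replicate number as a block, Tkt was called in FUN025/FUN025 over WT (0.29, edgeR adjusted p = 0.0425). The cause of these shifts was not tested.

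Taldo1 (chromosome 7, bases 141392199 to 141402968), transaldolase, ranged from 221 to 276 CPM in WT, 224 to 290.0 CPM in FUN025/+ and 215 to 291 CPM in FUN025/FUN025, and the log2 differences over WT were 0.035 (SE 0.086, edgeR adjusted p = 0.822) and -0.034 (SE 0.089, 95% interval -0.22 to 0.15, edgeR adjusted p = 0.838). Of its sequence, 14.0% also occurs in other genes, nearly all of it in Gm17823.

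The members varied among themselves from mouse to mouse along lines that genotype did not set. After the genotype mean of each gene was subtracted, Me1 and Me3 moved together (Pearson's r = 0.71 over 15 libraries), as did Me3 and Taldo1 (0.67), Pgd and Taldo1 (0.65) and Pgls and Taldo1 (0.59), whereas Idh2 and G6pdx moved oppositely (-0.59). Pgd and Tkt had an r of 0.51, which was 0.22 without FUN025/+ replicate 6. Idh1 had its highest r with Me2 (0.46) and its lowest with Tkt (-0.38, and 0.044 without FUN025/+ replicate 6). Tissue make-up and depth differed between these libraries, and the r values are descriptions.

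**Figure D3:**
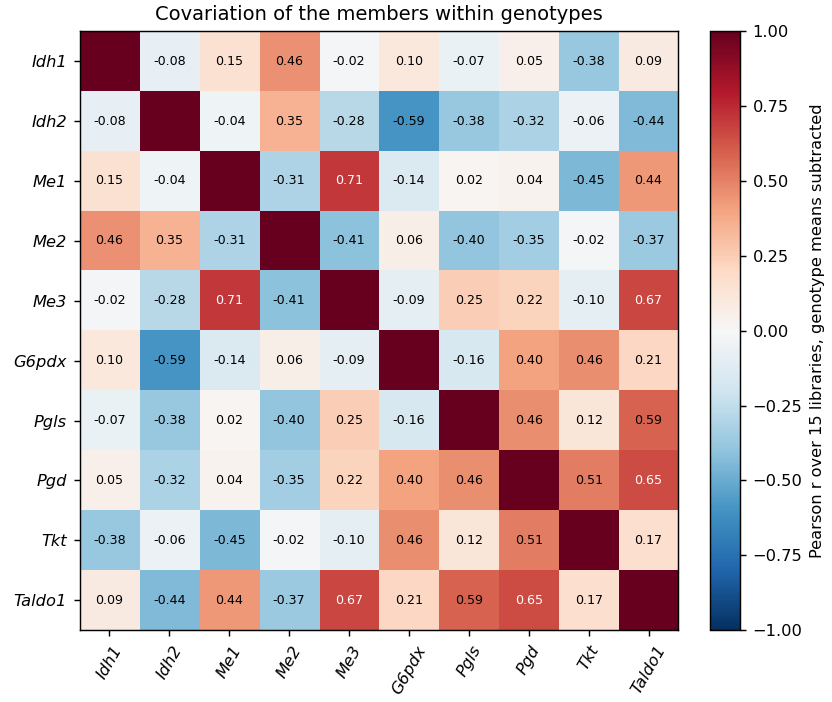
Pearson's r (colour, and the number in each square) between the log2 CPM of each pair of the 10 enzymes over the 15 libraries, after the mean of each genotype was subtracted. Me1 and Me3 (0.71) and the Taldo1 pairs with Me3 (0.67) and Pgd (0.65) are the highest, and the row of Idh1 stays between -0.38 and 0.46.

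Cell-type markers moved with several members within genotypes. Me1 varied from mouse to mouse with the mean log2 CPM of the 8 pigment epithelium markers (r = 0.91, and 0.90 to 0.94 leaving out any 1 mouse), and Me3 had an r of 0.81 with them. Idh1 had an r of 0.26, from 0.11 without FUN025/FUN025 replicate 5 to 0.40 without FUN025/+ replicate 4. Of the 12 marker lists, Idh1 had its largest r in size with the 6 Schwann cell markers (-0.57, and -0.41 without FUN025/+ replicate 6), followed by 0.38 with the melanocyte markers (0.13 without that mouse). Taldo1 went against the 10 rod markers (r = -0.87, and -0.92 to -0.85 leaving out any 1 mouse). With the 6 corneal epithelium markers, of which 6 of 6 had a positive log2 difference and 0 of 6 were called in FUN025/FUN025 over WT, r was 0.71 for G6pdx, 0.70 for Tkt and 0.62 for Pgd, and it was 0.56, 0.39 and 0.46 without FUN025/+ replicate 6. For Idh1 it was -0.26, from -0.50 without FUN025/FUN025 replicate 5 to 0.055 without FUN025/+ replicate 6. Tkt also went against the endothelial markers (r = -0.77, and -0.60 without that mouse), of which 5 of 8 were lower in FUN025/FUN025 than in WT. In fits with a marker list as a covariate, the log2 difference of Idh1 in FUN025/FUN025 over WT was 0.51 with the corneal epithelium markers, as against 0.50 without. With the pigment epithelium markers as a covariate, also chosen after seeing the data, Me1 was called beside Pgd in FUN025/FUN025 over WT (log2 0.16, edgeR adjusted p = 0.0267).

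**Figure D4:**
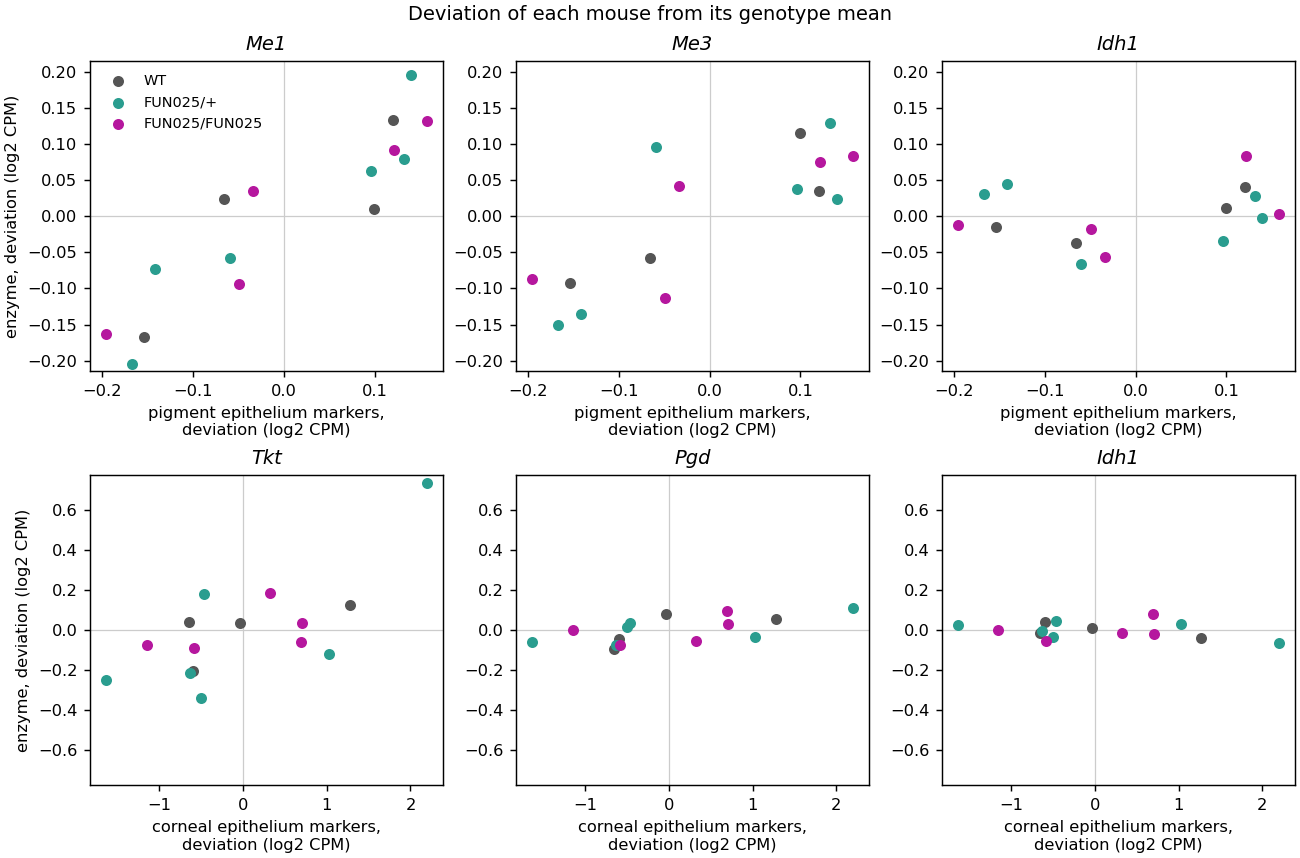
Deviation of an enzyme's log2 CPM from its genotype mean (vertical axes) against the deviation of the mean log2 CPM of a marker list (horizontal axes), 1 point per mouse, coloured by genotype; the top row uses the pigment epithelium markers and the bottom row the corneal epithelium markers. Me1 (r = 0.91) and Me3 (r = 0.81) follow the pigment epithelium, Tkt (r = 0.70) follows the corneal markers with FUN025/+ replicate 6 at the far right, and the r of Idh1 is 0.26 and -0.26.

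Among 17586 genes with a mean of at least 1 CPM, those whose log2 CPM was most like that of Idh1 over the 15 libraries were Insig1 (r = 0.96), which holds back sterol synthesis, Tmem41b (0.94), a membrane protein of lipid mobilization, the stearoyl-CoA desaturase Scd2 (0.94), the acetyl-CoA carboxylase Acaca (0.93) and the antisense RNA Gm46218 (0.93). Of the other members, Pgd ranked 995 with an r of 0.64, Me2 1573 (0.58), Tkt 4412 (0.31), Me1 4691 (0.29) and Me3 4989 (0.27), and Idh2 ranked 15710 (-0.55). These r values include the differences between genotypes, without which Me2 had an r of 0.46 with Idh1 and Tkt of -0.38. After the genotype means were subtracted, the nearest genes were others, Exoc3l4 (0.89), Emc7 (0.86), Gm12319 (0.81), Tfec (0.81) and Xrcc4 (0.80), and Insig1 and Scd2 had an r of 0.35 and 0.23 with Idh1.

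Beyond the 10 members, 0 of 10 other NADPH sources and NADP kinases were called in FUN025/FUN025 over WT, beside 14.0% of all genes. Of 13 enzymes that spend NADPH in lipid synthesis, 7 were called there. The 10 other NADPH sources and NADP kinases (among them H6pd, the folate enzymes Mthfd1 and Aldh1l1, and the kinases Nadk and Nadk2) had 0 higher and 0 lower in each of the 3 comparisons, and 0 in the trend, with a median log2 difference of -0.013 in FUN025/FUN025 over WT and 1 of 10 at an unadjusted p under 0.05 there (edgeR; 28.6% of all genes). Nnt, the mitochondrial transhydrogenase, had 4 to 18 counts per library. Of the 6 other pentose phosphate genes tested (of 8; Tktl1 and Tktl2 were not), 0 were called in FUN025/FUN025 over WT (median 0.092; 2 at an unadjusted p under 0.05, edgeR, beside the same 28.6%). In FUN025/+ over WT 1 of these 6 was called, beside 13.7% of all genes. It was Prps2, which makes ribose-phosphate donors for nucleotides and was higher (log2 0.22, SE 0.052, edgeR adjusted p = 0.00900). Of the 12 other enzymes and carriers of isocitrate, citrate and malate, 2 were called higher and 0 lower in FUN025/FUN025, beside 7.03% and 7.02% of all genes. The 2 were Slc25a1, which exports citrate from mitochondria (42.6 ± 2.92 to 50.4 ± 4.52 CPM, log2 0.24, SE 0.063, edgeR adjusted p = 0.0151), and Acly, which splits citrate to acetyl-CoA (164 ± 10.7 to 191 ± 20.3 CPM, log2 0.22, SE 0.072, edgeR adjusted p = 0.0465). In FUN025/+ over WT 1 of the 12 was called, beside the same 13.7% of all genes. It was Mdh2, the mitochondrial malate dehydrogenase, which was lower (log2 -0.25, SE 0.071, edgeR adjusted p = 0.0283). The 3 NAD-dependent subunits Idh3a, Idh3b and Idh3g were not called in either comparison with WT.

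Of the 13 NADPH-using lipid synthesis enzymes, 7 were higher and 0 lower in FUN025/FUN025 than in WT (7.03% and 7.02% of all genes), with a median log2 difference of 0.33. The largest were the sterol reductase Dhcr7 (0.61, SE 0.062), the lanosterol demethylase Cyp51 (0.58, SE 0.10), the squalene epoxidase Sqle (0.54, SE 0.078) and the fatty acid synthase Fasn (0.42, SE 0.053), with edgeR adjusted p values of 3.07e-06, 0.00114, 0.000148 and 3.5e-05. Beside the 0.25 and 0.25 of Idh1 at its first and second mutant allele, Dhcr7 differed by 0.28 and 0.32, and Fasn by 0.033 and 0.39. The comparisons share the FUN025/+ mice, and the difference between genes was not tested. Of the 12 SREBP factors and other SREBP targets, 10 were higher and 0 lower (median 0.63), among them Scd1 (1.84), Scd2 (1.30) and Insig1 (1.22). Of the 9 NADPH-using antioxidant reductases and the 10 other NRF2 targets, 0 were called by edgeR in FUN025/FUN025 over WT (3 and 1 at an unadjusted p under 0.05, beside 28.6% of all genes), with medians of -0.031 and 0.078. Nqo1 was lower in FUN025/FUN025 than in FUN025/+ (log2 -0.38, SE 0.078, edgeR adjusted p = 0.029).

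**Figure D5:**
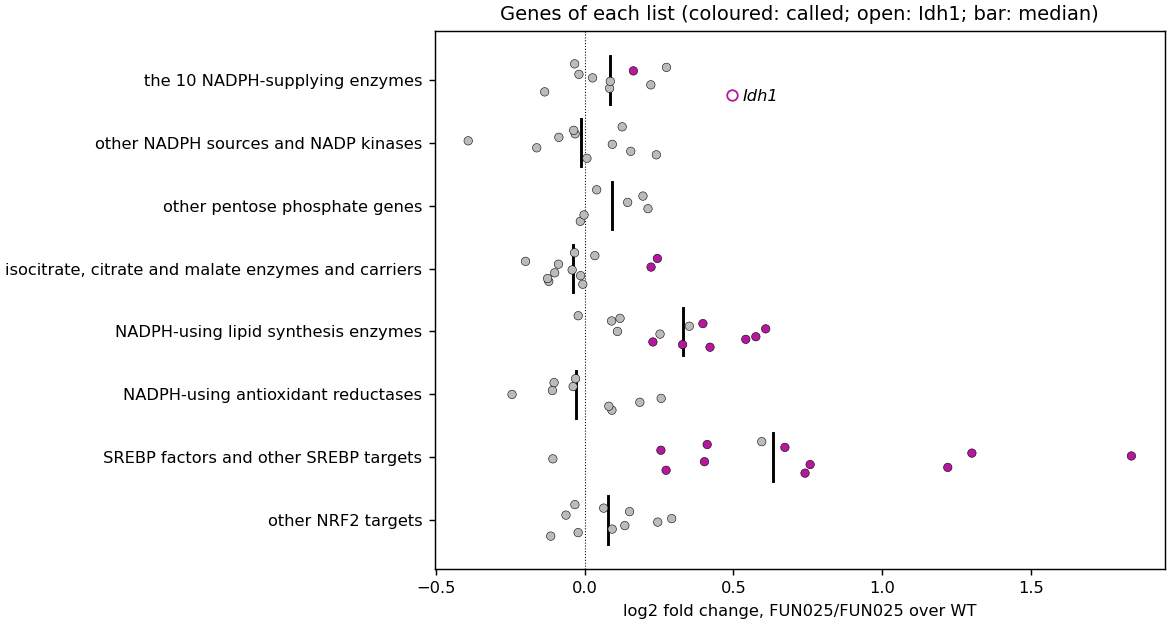
Log2 fold change of FUN025/FUN025 over WT (horizontal axis) for every tested gene of each list (rows), with genes called at an adjusted p of 0.05 in colour and a bar at the median of the list. Of the NADPH-supplying enzymes, Idh1 (open, no test) stands at 0.50 and Pgd alone is coloured, while 7 of 13 NADPH-using lipid synthesis enzymes and 10 of 12 SREBP genes are coloured and lie to the right.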

How the data were processed

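RNA of 15 posterior eyecups, 1 library per mouse, was sequenced. The authors deposited raw read counts per Ensembl gene (55421 genes), with no normalization. The submitters' processing notes list FastQC 0.11.8, Trimmomatic 0.39, HISAT2 2.1.0, SAMtools, featureCounts 2.0.0 and GRCm38, without roles, and the strand setting and annotation release are not given in the sources used here. Without strand, reads of a gene and an overlapping partner on the opposite strand cannot be told apart. For a partner on the same strand, as Fam129c is for Pgls, strand would not separate them.

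Groups came from the genotype labels. Symbols, positions and exon lengths came from GENCODE M21 on GRCm38. As in the study's methods, genes in the lowest 15% by variance were left out, and edgeR's filterByExpr then kept 18979. Counts were scaled by TMM, and all 15 mice entered 1 fit of edgeR's quasi-likelihood test (edgeR 4.0.16, robust) with Benjamini-Hochberg adjustment over all genes tested and a threshold of 0.05. The trend on allele number used limma 3.58.1 on log2 CPM (prior count 2) with a threshold of 0.01. Values are mean ± SD. Intervals are 95% intervals of the fits. The fits were tested on simulated data. R 4.3.3, DESeq2 1.42.0 (an alternative) and Python 3.11.15 were used.

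The 10 members and the other gene lists were chosen with earlier results of these data known, and the corneal list after the values of Tkt. Named genes are the members, Tmem135, up to 4 called genes with the largest difference in FUN025/FUN025 over WT per list, and the 5 genes most like Idh1 by each measure. A gene that this rule names is not reported here. Krt12, Prps2, Mdh2, Nqo1 and other unranked list genes were named after their values were seen. Alternatives were other scalings, filters, depths, tests, covariates and sample sets, a replicate block and leaving out each mouse. A replicate number shared between genotypes names separate animals, and the deviations of such mice from their genotype means correlated at -0.25 on average between WT and FUN025/+, -0.067 between WT and FUN025/FUN025 and 0.055 between the mutant genotypes, with 1 pair over 0.1, so the numbers were not taken as pairs.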

Additional observations from a re-analysis of the deposited data

Results flagged for a closer look

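In 2 of the 30 groups of values (10 enzymes in 3 genotypes), 1 mouse stood farther from the rest than a 95% limit on the gap relative to the range allows; chance flags about 1 in 20 groups. Me2 was at 23.2 CPM in FUN025/+ replicate 4, against 18.1 to 19.5 CPM in the other 5 FUN025/+ mice. G6pdx was at 63.4 CPM in FUN025/FUN025 replicate 5, against 55.6 to 56.7 CPM in the other 4 FUN025/FUN025 mice. Tkt in FUN025/+ replicate 6 (466 CPM, next 316) did not pass this limit.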

How the results depend on the processing

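The log2 difference of Idh1 for FUN025/+ over WT was 0.24 to 0.26 outside the fits that leave out a mouse, with an SE of 0.081 under the rod and muscle covariates against 0.040 without them. Of the other 9 members, 0 were called between FUN025/+ and WT, between the mutant genotypes, against the midpoint or in the trend under every alternative run. Between FUN025/FUN025 and WT the count was 1 and became 0 with no low-count or variance filter (Pgd edgeR adjusted p = 0.0745), 0 with rod and muscle marker covariates, 2 with the pigment epithelium covariate (Pgd and Me1) and 0 with the corneal covariate, the last pair chosen after seeing the data; leaving out each mouse gave 0 to 1. With replicate number as a block the count stayed 1, but the member called was Tkt (0.29, edgeR adjusted p = 0.0425) and Pgd was lost (0.16, edgeR adjusted p = 0.0808), as with only the genotypes compared (Pgd edgeR adjusted p = 0.0564); the shared numbers name separate animals. The cause of these shifts was not tested.

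Signs turned only for differences that had not been called. In FUN025/+ over WT these were Pgd at 0.000105 (DESeq2 size factors), 0.013 (upper quartile), 0.0015 (thinned), 0.0010 (Xist covariate) and 0.0044 (only the genotypes compared), Pgls at -0.0043 (no filter), -0.11 (rod and muscle), -0.0085 (Xist), -0.012 (pigment epithelium), -0.025 (block) and -0.018 (corneal), Taldo1 at -0.14 (rod and muscle), -0.0028 (pigment epithelium), -0.043 (block) and -0.012 (corneal), G6pdx at -0.0078 (block) and -0.032 (corneal), Idh2 at 0.0047 (rod and muscle), Me1 at -0.019 (pigment epithelium) and Tkt at -0.017 (corneal). In FUN025/FUN025 over WT they were Pgls at 0.056 (thinned), Taldo1 at 0.017 (pigment epithelium) and G6pdx at -0.043 (corneal), with trends of 0.028, 0.0066 and -0.020. Leaving out each mouse gave -0.0079 to 0.084 for Me1, -0.047 to 0.052 for Pgls, -0.027 to 0.030 for Pgd and -0.012 to 0.094 for Taldo1 in FUN025/+, -0.0092 to 0.067 for G6pdx, -0.067 to 0.030 for Pgls and -0.10 to 0.024 for Taldo1 in FUN025/FUN025, and trends of -0.0049 to 0.030, -0.033 to 0.014 and -0.051 to 0.0035 for these last 3.

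Counts over all genes (2600, 2666, 99, 370 and 407 for FUN025/+, FUN025/FUN025, the mutant genotypes, the midpoint and the trend) moved with the rod and muscle covariates to 299 and 806 for the comparisons with WT, 55 for the midpoint and 100 for the trend. The trend gave 667 with the pigment epithelium covariate, 219 with the corneal covariate, 112 with the block and 131 to 181 without a WT mouse. DESeq2 gave 171 between the mutant genotypes and 673 for the midpoint, which gave 239 and 208 without FUN025/+ replicates 2 and 3. Without WT replicate 4 the comparisons with WT gave 1433 and 1519.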
